A study of Mus musculus with 2 samples.

Results

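Surface absorptive colonocyte nuclei were the nuclei of colon tissue that carried transcripts of the luminal end of the absorptive lineage. They were chosen from the measured counts themselves. A nucleus was a member when at least 4 of 10 genes were detected in it (Clca4a, Car4, Aqp8, Lama3, Slc15a1, Atp12a, Ifit1bl1, Ly6m, 4930539E08Rik and Saa1) and when these genes together held at least 0.3% of its unique molecular identifiers (UMIs, each counting 1 captured RNA molecule). The rule found 868 members among 9586 nuclei, 281 of 4884 in the WT library and 587 of 4702 in the HIF-1α KO library. The levels of the 10 genes are therefore a description of how the members were chosen and not a result.

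Absorptive colonocytes leave the crypt, move up its wall and are shed from the surface between crypt mouths. On the way they acquire the apical exchangers, carbonic anhydrases and channels that take up sodium, chloride, water and short-chain fatty acids, a brush border with membrane mucins, and enzymes and secreted proteins that act on bacteria at the lumen. Surface cells are also the colonocytes most exposed to DSS (dextran sulfate sodium, a polymer in the drinking water that injures this epithelium) and to the bacteria and cytokines of colitis.

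Single-nucleus RNA sequencing was performed on snap-frozen colon taken on day 28 of chronic colitis, from mice that were given as 8 to 12 weeks old when treated. Colitis had been induced in both groups with 2% DSS in 4 rounds, each with 3 days of DSS followed by 4 days without it. The WT group was labelled wild type, and the HIF-1α KO group carried Ncr1cre and floxed Hif-1α alleles (Ncr1cre+ Hif-1α fl+/fl+). Ncr1 drives Cre in NKp46+ cells, which are natural killer and innate lymphoid cells, so the colonocytes of both groups were designed to keep an intact Hif1a gene. Tissue of 3 animals was pooled per genotype into 1 library. With 1 library a genotype there was no replicate to check a difference against, no test was made, and every interval given here is a 95% interval that covers counting error only.

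The HIF-1α KO library was the deeper one, with 25489277 UMIs against 13492810. Members had a median of 3698 UMIs in WT and 5508 in HIF-1α KO, above the library medians of 2058.5 and 4197. Mitochondrial transcripts made up a median of 0.278% of the UMIs of a WT member and 0.864% of a HIF-1α KO member, and 9 of the 13 mitochondrial genes tested were past 2-fold higher in HIF-1α KO members. The targeted gene Hif1a (ENSMUSG00000021109), which colonocytes keep by design, had 316 CPM (UMIs per 1000000 UMIs) in WT and 308 in HIF-1α KO members, a log2 ratio of -0.04 (-0.21 to 0.13). The libraries shared 3 barcodes, none of them among members. The part of depth or of mitochondrial content in the differences below was not tested.

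Surface absorptive colonocyte nuclei made up a larger share of the HIF-1α KO library. The share was 5.75% (5.12 to 6.44%) in WT and 12.5% (11.6 to 13.5%) in HIF-1α KO, a log2 ratio of 1.12 (0.91 to 1.33). Because a deeper nucleus shows more of the 10 genes, every nucleus was also thinned to 1000 UMIs, for which 63 nuclei of HIF-1α KO and 0 of WT were too shallow. At this equal depth 157 WT nuclei (3.21%) and 369 HIF-1α KO nuclei (7.95%) met the rule, a log2 ratio of 1.31 (1.03 to 1.59). Part of the difference was shared with the rest of the absorptive lineage. Other absorptive nuclei, defined by at least 3 of 8 genes such as the chloride exchanger gene Slc26a3 and the mucin gene Muc3, were 10.5% (9.64 to 11.4%) of WT and 15.7% (14.6 to 16.7%) of HIF-1α KO nuclei. Within all absorptive nuclei, members were 35.4% in WT and 44.4% in HIF-1α KO, a log2 ratio of 0.32 (0.12 to 0.53). With 1 pool per genotype, a difference between the animals and a difference in which part of the tissue released nuclei cannot be told apart from the genotype.

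**Figure D1:**
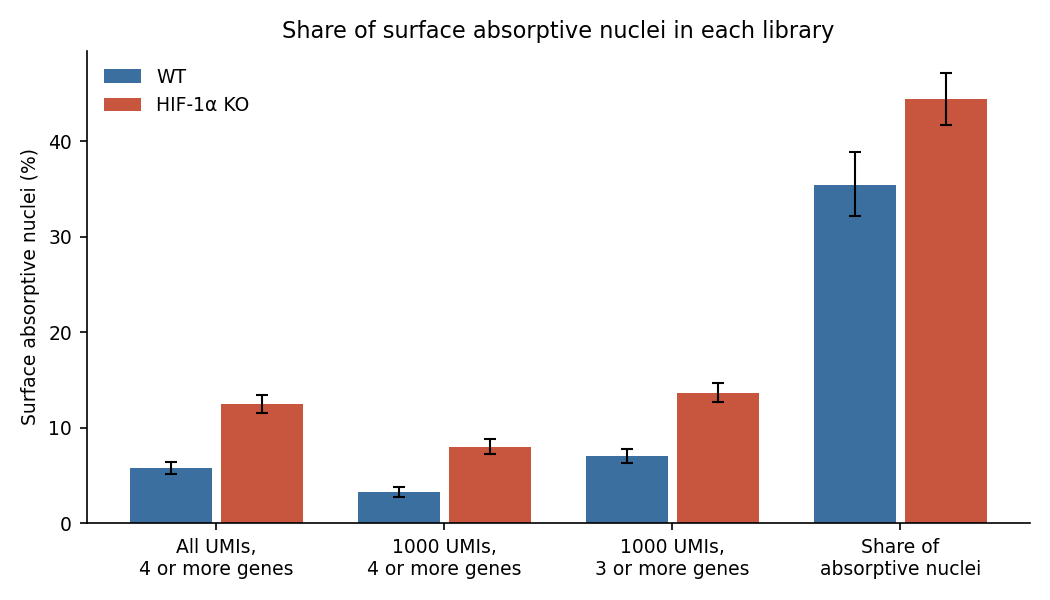
Bars give the percent of nuclei that met the rule in the WT and HIF-1α KO libraries, with exact 95% binomial intervals, at full depth, after thinning to 1000 UMIs with at least 4 or at least 3 genes required, and as a share of absorptive nuclei only. The HIF-1α KO bar is the higher one in all 4 settings (12.5% against 5.75% at full depth), with the smallest relative gap when the denominator is absorptive nuclei (44.4% against 35.4%).

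The contribution of each of the 10 genes differed between the libraries. Levels are summed UMIs of all members of a library, in CPM. Saa1, an acute-phase protein gene, stood at 1721 CPM in WT and 1447 in HIF-1α KO. Atp12a, encoding the catalytic subunit of the colonic H+/K+ ATPase, stood at 1538 and 870 CPM. Car4, encoding a carbonic anhydrase anchored on the apical membrane, stood at 1391 and 1495 CPM. In WT, these 3 genes were the most abundant of the 10, whereas in HIF-1α KO Atp12a was passed by Clca4a and Lama3. Clca4a, a member of the CLCA family, had 725 (678 to 774) CPM in WT and 1416 (1379 to 1454) in HIF-1α KO. Lama3, encoding a laminin chain of epithelial basement membranes, had 462 (424 to 501) and 1101 (1069 to 1134) CPM. Ifit1bl1, of an interferon-induced gene family, had 303 (273 to 336) and 789 (762 to 817) CPM. The peptide transporter gene Slc15a1 (419 and 399 CPM), Ly6m (544 and 482 CPM), the water channel gene Aqp8 (180 and 259 CPM) and 4930539E08Rik (356 and 491 CPM) made up the remainder. Reads of Saa1, Ifit1bl1, Ly6m and Clca4a can be split with close paralogs, so their levels are less certain.

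Transcripts of the 10 genes were also counted in nuclei of other classes. Mesenchymal nuclei had a median of 2140.5 UMIs in WT and 3142 in HIF-1α KO, and 0 and 6 of them were also members. In these nuclei the levels ranged from 9.28 CPM for Aqp8 to 128 CPM for Saa1 in WT. In HIF-1α KO they ranged from 27.9 to 178 CPM for the same genes. How much of these levels was free RNA was not tested. In HIF-1α KO mesenchymal nuclei, 1 nucleus held 20% of the Atp12a UMIs and 1 nucleus 23.1% of those of 4930539E08Rik. Other absorptive nuclei had 186 CPM of Saa1 in WT and 191 in HIF-1α KO, the latter within counting error of the mesenchymal level, and 217 and 227 CPM of Car4. Goblet nuclei, of which 19 in WT and 44 in HIF-1α KO were also members, were set beside other absorptive nuclei too. Saa1, Atp12a and 4930539E08Rik were higher in goblet nuclei in both libraries, and Car4, Lama3 and Slc15a1 were lower. Ly6m was higher too, but within counting error in WT (63.7 against 52.2 CPM). Aqp8 was within counting error in both libraries. Members were left in the goblet nuclei but not in other absorptive nuclei, and their part in the goblet levels was not tested. Saa1 had 477 CPM in WT and 397 in HIF-1α KO goblet nuclei. Atp12a had 367 and 276 CPM, against 251 and 103 CPM in other absorptive nuclei. Members were above all of these classes for all 10 genes, which the rule had used. The median member had 7 of the 10 genes detected in WT and 8 in HIF-1α KO, and the 10 genes held a median of 0.608% and 0.666% of its UMIs.

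**Figure D2:**
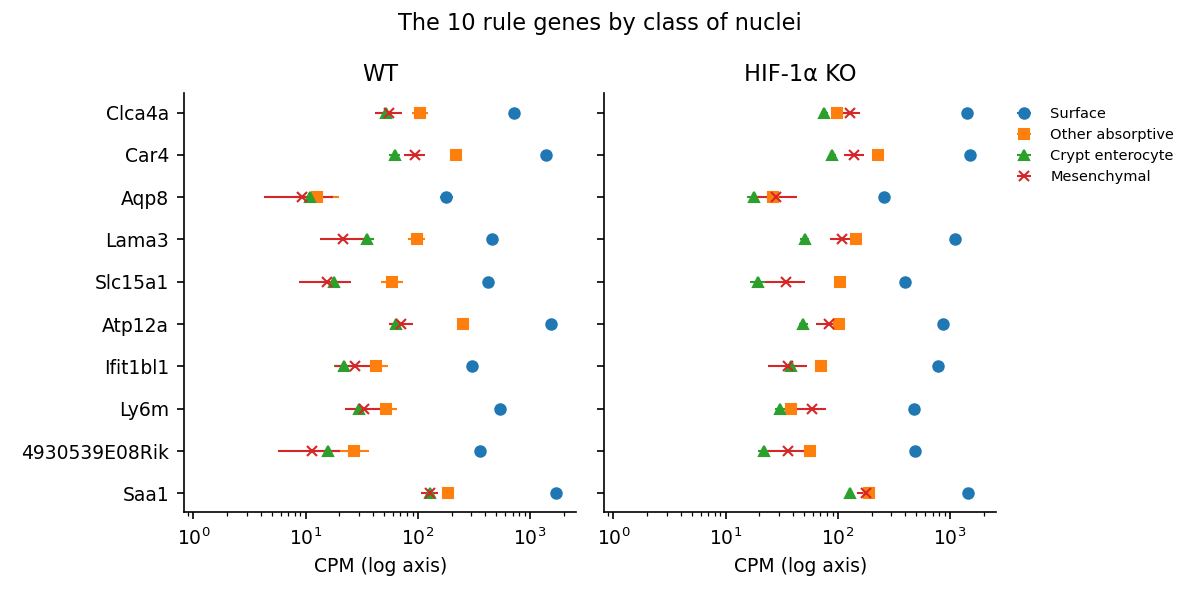
Each panel shows 1 library, with the level of each of the 10 genes used to choose the members on a log CPM axis in surface, other absorptive, crypt enterocyte and mesenchymal nuclei, and with 95% Poisson intervals. The surface points lie to the right of all other classes for all 10 genes because the rule used them. The mesenchymal points show the level in another class (128 CPM of Saa1 in WT), of which 6 HIF-1α KO nuclei were also members.

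The phi coefficient (a correlation of presence and absence over the members of a library) over the 45 pairs had a median of 0.03 in WT and 0.06 in HIF-1α KO, and its highest value was 0.22 and 0.19. Nothing is read from these values, since the rule asked for at least 4 of the same genes in each nucleus and all pairs share its depth. The nuclei just inside and just outside the rule are described by genes it did not use. In HIF-1α KO, nuclei with 0.30 to 0.35% of their UMIs in the 10 genes had 1578 CPM of Slc26a3 and 57.4 CPM of the claudin gene Cldn4, and those with 0.25 to 0.30%, which are not members, had 1909 and 58.2 CPM. In WT the same pairs of values were 1332 and 85.2 CPM inside and 1035 and 41.0 CPM outside. At the limit on the number of genes, nuclei with 4 genes (54 in WT and 47 in HIF-1α KO) had 1135 and 2104 CPM of Slc26a3. Those with 3 genes (49 and 34), which are not members, had 671 and 384 CPM. Muc3 was closer, at 713 against 660 CPM in WT and 1156 against 978 CPM in HIF-1α KO. Cldn4 had 112 against 88.0 CPM in WT and 52.2 against 0 CPM in HIF-1α KO. Depth was lower on the outer side (a median of 1399 UMIs against 1719.5 in WT and 1319.5 against 2731 in HIF-1α KO). These values carry no intervals.

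The label was checked against genes that the rule did not use. Members had Krt20, a keratin gene of differentiated enterocytes, at 406 CPM in WT and 617 in HIF-1α KO, 0.84 and 1.19 higher on the log2 scale than in other absorptive nuclei. Lypd8, encoding an antibacterial surface protein of colonocytes, stood at 2496 and 3218 CPM, 0.89 and 0.76 higher. The sum of 6 stem and cycling markers was 140 CPM in WT and 72.7 in HIF-1α KO members, against 203 and 123 CPM in other absorptive nuclei. Lgr5 was the lowest of the 6, at 1.62 and 1.27 CPM, and Top2a the highest, at 44.6 and 19.8 CPM. Goblet markers were not lower in members. Their sum over 8 genes was 4614 CPM in WT and 5024 in HIF-1α KO members, above the 1708 and 1968 CPM of other absorptive nuclei. This sum sat in few nuclei. It was 1208 and 1656 CPM when the 20 WT (7.12%) and 62 HIF-1α KO (10.6%) members that also met a goblet, mesenchymal or immune marker rule were left out. Of these, 19 and 44 met the goblet rule. Whether they are single nuclei or pairs of nuclei in 1 droplet cannot be told apart. All markers of other types were above 0, and the sums of 9 mesenchymal and of 4 neuron and glia markers were 300.2 and 286 CPM in WT members but 139 and 111 CPM in HIF-1α KO members.

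Members were binned by the share of their UMIs in the 10 genes, from 0.3 to 0.5% (100 WT and 194 HIF-1α KO nuclei), from 0.5 to 1% (130 and 229) and at 1% or more (51 and 164). The bins divide the score that chose the members, so they are a description, and depth moved with them. The median UMIs over the 3 bins were 2976, 3453.5 and 4624 in WT and 5250.5, 5325 and 6169 in HIF-1α KO, and their part in the values was not tested. Cldn4, encoding a tight junction claudin, increased over the 3 bins from 60.0 to 181 to 295 CPM in WT and from 41.7 to 106 to 272 CPM in HIF-1α KO. Duox2, encoding the dual oxidase that makes hydrogen peroxide at the lumen, increased from 295 to 814 CPM in WT and from 384 to 982 CPM in HIF-1α KO. The order of the bins was the same in both libraries for these genes. Muc3, a membrane mucin gene, stood at 787 and 901 CPM in the lowest bins and at 2166 and 2138 CPM in the highest. Slc26a3, which encodes the main chloride and bicarbonate exchanger of the colon, was level across the bins, between 1504 and 1571 CPM in WT and between 1619 and 1696 CPM in HIF-1α KO. Aqp4, a gene for a basolateral water channel, decreased from 98.4 to 41.1 CPM in WT and from 97.3 to 37.0 CPM in HIF-1α KO. Zg16, a lectin gene of goblet cells, was highest in the middle bin, at 3486 and 2615 CPM, although not every bin followed the number of members that met the goblet rule. That number was 6, 12 and 1 over the bins in WT and 19, 19 and 6 in HIF-1α KO.

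**Figure D3:**
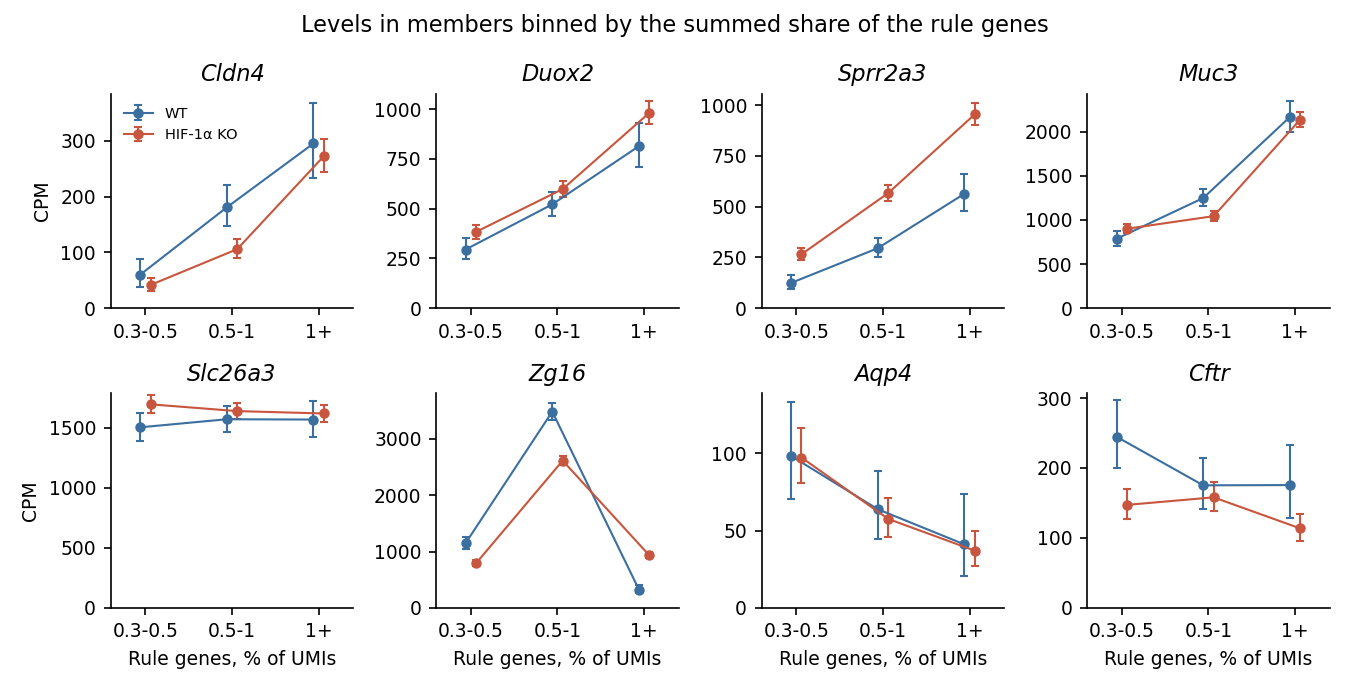
Panels show CPM with 95% Poisson intervals for 8 genes in members binned by the percent of UMIs in the 10 rule genes (0.3 to 0.5%, 0.5 to 1%, 1% or more), for WT and HIF-1α KO. Cldn4, Duox2, Sprr2a3 and Muc3 increase across the bins in both libraries, Slc26a3 is level, Aqp4 decreases, and Zg16 peaks in the middle bin at 3486 CPM in WT and 2615 in HIF-1α KO.

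Members were compared with other absorptive nuclei of the same library, and the genes highest in members included the claudin gene Cldn4, the oxidase genes Duox2 and Duoxa2, and interferon-induced and stress genes such as Rsad2 and Atf3. A gene was counted when it was past 2-fold the same way in both libraries after 10 CPM was added to each level, among genes with at least 50 UMIs in both classes together in each library. Of 6572 genes tested outside the 10 rule genes, 260 were counted (3.96%), 186 higher (2.83%) and 74 lower (1.13%) in members. Since the members were chosen on these same counts, the comparison is a description and carries no test. Other absorptive nuclei were shallower, with a median of 1958 UMIs in WT and 4749.5 in HIF-1α KO, against 3698 and 5508 in members. Their median mitochondrial share was 0.208% and 0.356%, against 0.278% and 0.864% in members. The part of depth and of mitochondrial content in this comparison was not tested. The median ratio over all genes tested was below 0 on the log2 scale, at -0.12 in WT and -0.24 in HIF-1α KO. When each library was centered on that median, 275 genes were higher and 38 lower.

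The highest genes are described first, and the count requires them to be higher in both libraries. Cldn4 had 165 (143 to 189) CPM in WT members against 11.8 CPM in other absorptive nuclei, and 137 (126 to 149) against 11.3 CPM in HIF-1α KO, log2 ratios of 3.80 (3.08 to 4.61) and 3.60 (3.17 to 4.07). Duox2 had 509 against 94.6 CPM in WT and 650.2 against 115 CPM in HIF-1α KO. Its maturation factor gene Duoxa2, next to it on chromosome 2 (122298900 to 122302885 of GRCm38), had 127 against 12.5 CPM and 85.0 against 10.3 CPM, so both parts of the oxidase were higher in members. Sprr2a3, of the small proline-rich proteins of barrier epithelia and with near-identical copies in the genome, had 296 against 44.5 CPM in WT and 593 against 113 CPM in HIF-1α KO. Atf3, a stress-induced transcription factor gene, had 90.9 against 8.35 CPM and 197 against 24.1 CPM. Rsad2, encoding the antiviral enzyme viperin, had 64.9 against 8.35 CPM and 75.0 against 7.12 CPM, although a single nucleus held 28.1% of its UMIs in HIF-1α KO members. The noncoding gene 5430427M07Rik, the linker histone gene Hist1h1c, Lhfpl2, Gramd1b, the sorbitol dehydrogenase gene Sord and the selenium carrier gene Selenop completed the 12 highest, with log2 ratios from 2.16 to 3.77. The 12 were ranked after 10 CPM was added, whereas the printed ratios are without it, so a sparse gene such as Adm can have a larger printed ratio and not be among them.

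Gene lists were counted in the same way. Of 25 interferon-stimulated and Ly6 genes tested in this comparison, 9 were past 2-fold higher in members and 0 lower, among them Ly6g (1.93 in WT and 2.42 in HIF-1α KO on the log2 scale), Ly6a (1.76 and 1.96) and the class I molecule gene H2-K1 (1.43 and 1.67). Of 20 antimicrobial and inflammatory genes, 6 were higher, including Tnfaip3, an inhibitor of NF-κB signaling (1.92 and 1.82). Of 29 hypoxia and glycolysis genes, 6 were higher, including the vasoactive peptide gene Adm (3.74 and 3.56) and the glucose transporter gene Slc2a1 (1.55 and 1.60). Of 17 immediate-early and stress genes, 7 were higher, including Dusp1 (2.46 and 2.02) and Jun (2.02 and 2.03). These counts stand against 2.83% over all genes tested. The median of the interferon-stimulated list was 0.82 in WT and 0.87 in HIF-1α KO, and that of the hypoxia list 0.69 and 0.71.

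Other lists were nearer the background. The 8 genes that chose other absorptive nuclei, such as Slc26a3 and Muc3, were not left out of the genes tested. Counts of lists that hold such genes are partly set by that choice. For the brush border and luminal surface, 2 of 25 genes were higher, Ceacam1 (1.61 and 1.41) and the microfilament regulator gene Eps8 (1.19 and 1.65). For junction and matrix contact, 4 of 30 were higher, among them the tight junction genes Cldn4, Cldn3 and Ocln. For ion and water absorption, 2 of 21 were higher, Sgk1 and Slc9a3r1, and 1 was lower, Aqp4. For purine and tip enzymes, 2 of 15 were higher, the carboxylesterase genes Ces2c and Ces2e. For maturation regulators, Prdm1 and Elf3 of 27 were higher, and Smad6 and Nr5a2 were lower. None of 17 butyrate and fatty acid oxidation genes and none of 6 EGF ligand and receptor genes were past 2-fold either way. List medians in WT and HIF-1α KO were 0.47 and 0.66 for the brush border and 0.63 and 0.70 for purine and tip enzymes. They were 0.25 and 0.05 for ion and water absorption, -0.02 and -0.35 for butyrate oxidation, and -0.11 and -0.30 for maturation regulators.

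The genes lowest in members included Aqp4 and many genes of the list named crypt and secretory transporters, which also holds genes that are not transporters. Aqp4 had 70.6 (56.5 to 87.1) CPM in WT members against 334 in other absorptive nuclei, and 63.6 (56.0 to 72.0) against 324 CPM in HIF-1α KO. Of 17 genes of that list, 9 were past 2-fold lower in members, against 1.13% over all genes, and 0 were higher. They included Cftr, the chloride channel gene (-1.19 and -1.38 on the log2 scale), the serotonin receptor gene Htr4 (-1.28 and -1.25), the potassium channel gene Kcnq1 (-1.28 and -1.20), the gasdermin genes Gsdmc2, Gsdmc3 and Gsdmc4, and Cyp2c68 (-1.71 and -2.54). The gasdermin copies are similar enough to share reads. Others of the 12 lowest were Robo2, Hao2, Utp20, Ppp1r9a, Samd12 and Ank, with log2 ratios from -2.30 to -1.44 over both libraries. When the 20 and 62 members that met another type's rule were left out, 176 genes were higher and 72 lower in members.

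**Figure D4:**
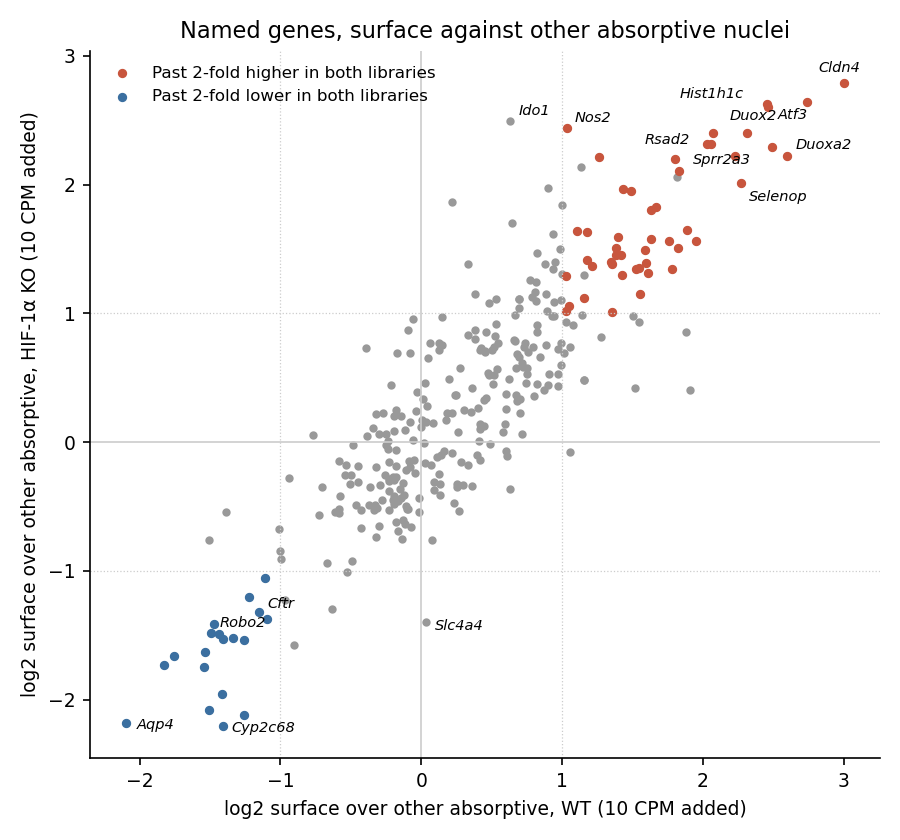
Each point is 1 named gene outside the 10 rule genes, with its log2 ratio of surface over other absorptive nuclei in WT on the horizontal axis and in HIF-1α KO on the vertical axis, after 10 CPM was added to each level. Red and blue points are past 2-fold in both libraries, Cldn4 lies at the upper right and Aqp4 at the lower left, and Slc4a4 and Ido1 lie off the diagonal.

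Interferon-inducible genes were set beside their promoters, because several of them were high in members and the Ifit1bl1 gene belongs to the rule. Promoters were taken from RefSeq on GRCm38.p6 and only bases before the start of transcription are shown, written 5′ to 3′ on the strand of the gene. Capitals mark matches, on either strand, to the core of the interferon-stimulated response element (ISRE), searched as GAAA, any 2 bases and a second GAAA.

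Ifit1bl1, chr19:34601969-34602098, minus strand: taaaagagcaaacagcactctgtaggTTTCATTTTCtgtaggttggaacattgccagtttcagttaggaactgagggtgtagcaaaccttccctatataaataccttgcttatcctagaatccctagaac
Ddx60, chr8:61927957-61928086, plus strand: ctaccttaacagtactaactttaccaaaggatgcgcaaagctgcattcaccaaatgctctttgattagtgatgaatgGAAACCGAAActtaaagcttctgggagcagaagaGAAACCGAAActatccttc
Ifit1, chr19:34640759-34640870, plus strand: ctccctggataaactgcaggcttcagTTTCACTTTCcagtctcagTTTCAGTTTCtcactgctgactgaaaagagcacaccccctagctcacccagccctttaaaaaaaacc
Rsad2, chr12:26456453-26456582, minus strand: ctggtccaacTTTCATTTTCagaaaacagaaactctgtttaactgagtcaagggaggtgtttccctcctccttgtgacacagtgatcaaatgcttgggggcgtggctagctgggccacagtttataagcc

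The match began 104 bases before the start in Ifit1bl1 and 120 bases before it in Rsad2. Ddx60 had a pair of identical matches at 53 and 19 bases, and Ifit1 a pair at 104 and 85 bases. Within the 250 bases before the start, 10 of the 27 tested interferon-stimulated and Ly6 genes that the table holds had a match (37.0%), against 3.46% of the 27025 genes of the table. The list was chosen by name as interferon-stimulated and Ly6 genes, so its share says nothing about members. Of the 12 genes highest in members, 10 had a promoter to search and 2 had a match, Rsad2 and Selenop. A match describes the letters and does not show binding.

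Cldn4 and Sgk1 are shown for other motifs. Capitals mark TGANTCA, the AP-1 site bound by Fos and Jun proteins, in Cldn4, and the glucocorticoid response element (GRE), searched as GNACA, any 3 bases and TGTNC, in 1 of the 6 promoters of Sgk1. These motifs were chosen after the values were seen.

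Cldn4, chr5:134947053-134947184, minus strand: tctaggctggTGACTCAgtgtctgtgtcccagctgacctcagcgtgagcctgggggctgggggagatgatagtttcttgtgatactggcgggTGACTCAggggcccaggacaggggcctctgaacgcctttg
Sgk1, chr10:21993690-21993741, plus strand: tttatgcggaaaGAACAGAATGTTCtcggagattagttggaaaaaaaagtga

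The matches in Cldn4 began 240 and 158 bases before the start, and that in Sgk1 188 bases before it. On either strand, AP-1 letters were found in 7.82% and GRE letters in 0.440% of the genes of the table. Of the 12 genes highest in members, 10 were in the table and 3 had an AP-1 match, Cldn4, Duoxa2 and Rsad2.

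Between the genotypes, members differed by more than 2-fold in 210 of the 7942 genes with at least 50 UMIs in members of both libraries together (2.64%). Of these, 106 were higher (1.33%) and 104 lower (1.31%) in HIF-1α KO. The higher ones include the rule genes Lama3 and Ifit1bl1, from which nothing is read. When centered on the median, 142 were higher and 79 lower. The median log2 ratio over the genes tested was -0.07 in members, 0.05 in other absorptive nuclei and 0.08 in all other nuclei. Levels of a library that has no replicate can be compared with counting error only, so these counts describe these 2 pools.

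Inflammatory genes of epithelium were among the highest in HIF-1α KO members. Nos2 (ENSMUSG00000020826, chromosome 11, 78920787 to 78960254 of GRCm38, the build of all positions given), encoding the inducible nitric oxide synthase, had 48 UMIs or 38.9 (28.7 to 51.6) CPM in WT and 819 UMIs or 208 (194 to 223) CPM in HIF-1α KO. Its log2 ratio was 2.42 (2.00 to 2.87), compared with 1.12 (0.43 to 1.88) in other absorptive nuclei, where its level was 13.9 and 30.2 CPM. Ido1 (ENSMUSG00000031551, chromosome 8, 24584136 to 24597009), encoding the enzyme that opens the ring of tryptophan, had 28 UMIs or 22.7 (15.1 to 32.8) CPM and 410 UMIs or 104 (94.4 to 115) CPM. Its log2 ratio was 2.20 (1.65 to 2.81), compared with -0.11 (-0.97 to 0.82) in other absorptive nuclei. Ido1 was concentrated, since 1 nucleus held 46.4% of its UMIs in WT members and 1 nucleus 22.9% in HIF-1α KO members. Nfkbiz, encoding a nuclear IκB protein, had 122 (103 to 143) and 275 (259 to 292) CPM, and with thinning to 1000 UMIs it was 0.81 higher, short of 2-fold. Whether the ratios of Nos2 and Ido1 differ between members and other absorptive nuclei was not tested.

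**Figure D5:**
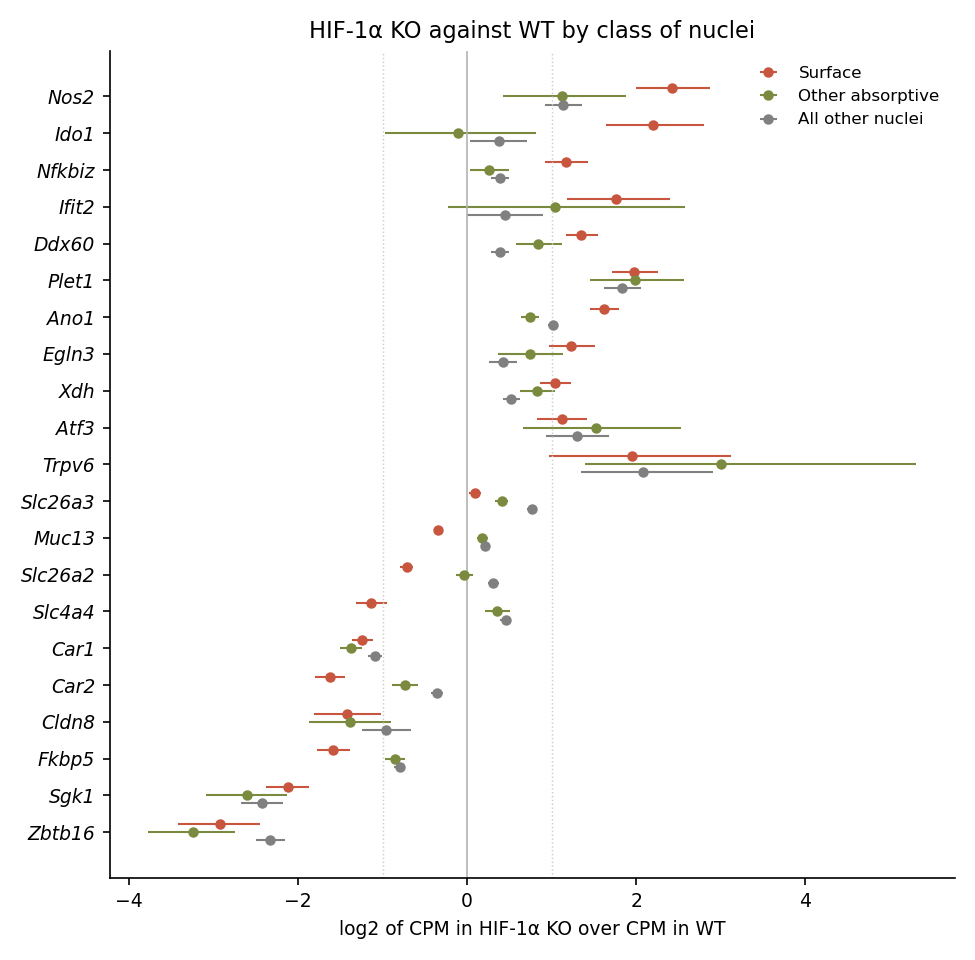
Points give the log2 ratio of CPM in HIF-1α KO over WT for 21 named genes in surface nuclei, other absorptive nuclei and all other nuclei, with exact 95% conditional intervals for counting error, and dotted lines mark 2-fold. Nos2 and Ido1 lie farthest to the right in surface nuclei (2.42 and 2.20), Slc4a4 and Muc13 lie left of 0 in surface nuclei and right of 0 in the others, and Sgk1 and Zbtb16 lie left of the lower 2-fold line in all 3 classes.

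The antimicrobial and inflammatory list as a whole held 3 genes past 2-fold higher among 28 tested, Nos2, Ido1 and Nfkbiz, against 1.33% over all genes, and 0 lower, with a median log2 ratio of 0.45. Sprr2a3 was just under the limit, at 296 (267 to 328) CPM in WT and 593 (570 to 618) in HIF-1α KO. Cd274, encoding the checkpoint ligand PD-L1, was also under it, at 21.1 and 50.4 CPM. The oxidase genes did not share the pattern of Nos2. Duox2 had a log2 ratio of 0.35 (0.23 to 0.48) and Duoxa2 of -0.58 (-0.85 to -0.29), and Tgm2, encoding a transglutaminase, had -1.33 (-1.86 to -0.79), all of them short of 2-fold after 10 CPM was added.

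Interferon-stimulated genes differed from one another. Of 34 tested with the Ly6 genes, 2 were past 2-fold higher, against 1.33% over all genes, and 0 lower, with a median of 0.21. Each of the 2, Ifit2 and Ddx60, was short of 2-fold in at least 1 other setting. Ifit2, of the interferon-induced tetratricopeptide proteins, had 21.1 (13.8 to 30.9) CPM in WT and 71.7 (63.6 to 80.6) in HIF-1α KO, but 1 nucleus held 33.7% of its UMIs in HIF-1α KO members, and its log2 ratio with 10 CPM added was 1.39 with all members and 0.54 with those that met the rule at 1000 UMIs. Ddx60, encoding a helicase that promotes sensing of viral RNA, had 211 (186 to 238) and 538 (516 to 562) CPM. The call of Ddx60 was lost in 4 other settings. Its log2 ratio with 10 CPM added was 1.31 with all members, 0.78 without those that also met another type's rule, 0.91 with thinning, 0.89 as the mean of single nuclei and 0.79 with members that met the rule at 1000 UMIs. Ifit1, whose promoter is shown above beside that of Ifit1bl1, had 26.8 and 53.4 CPM, with 43.3% of its UMIs in 1 HIF-1α KO nucleus, and Gbp2, a guanylate-binding protein gene, had 16.2 and 40.2 CPM. The class I genes H2-K1 (609 and 386 CPM) and H2-D1 (230 and 180 CPM) and the Ly6 genes Ly6g (297 and 245 CPM) and Ly6c1 (36.5 and 25.7 CPM) lay on the other side, each lower in HIF-1α KO by less than 2-fold.

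Plet1 and Ano1 were past 2-fold higher in HIF-1α KO members and had ratios above 0 in other absorptive nuclei too. Plet1, encoding a membrane-anchored surface protein of epithelia, had 126 UMIs or 102 (85.2 to 122) CPM in WT and 1584 UMIs or 403 (383 to 423) CPM in HIF-1α KO members. Its log2 ratio was 1.98 (1.72 to 2.25) in members and 1.99 (1.46 to 2.57) in other absorptive nuclei. The antisense gene Plet1os overlaps it and had 2 and 123 UMIs, so the reads of the pair may not be separable. Ano1, encoding a calcium-activated chloride channel, had 241 (214 to 270) and 741 (715 to 769) CPM, with log2 ratios of 1.62 in members and 0.74 in other absorptive nuclei. Of 18 genes of the crypt and secretory transporter list, it was the only 1 past 2-fold higher (1.33% over all genes), and 0 were lower (1.31%). The 12 highest ratios belonged to Nos2, Ido1, Plet1, Plet1os and 8 other noncoding or antisense gene models with at most 20 UMIs in WT. Examples are Gm35188 with 20 and 322 UMIs, and Gm15345 with 0 and 107 UMIs. For Gm15345 this puts HIF-1α KO at least 3.48 higher on the log2 scale when 3 UMIs are taken as the limit in WT.

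Among hypoxia and glycolysis genes, 1 of 32 was past 2-fold higher, against 1.33% over all genes, and 0 lower, with a median of 0.17. This was Egln3, encoding an oxygen-sensing prolyl hydroxylase that HIF induces, with 105 (87.4 to 124) and 246 (230.5 to 262) CPM. The carbonic anhydrase gene Car9 (51.9 and 29.3 CPM), Vegfa (67.3 and 70.7 CPM), Slc2a1 (114 and 129 CPM) and Ldha (127 and 171 CPM), which are induced by HIF in many cells, were not past 2-fold. Xdh, encoding xanthine dehydrogenase, was the only 1 of 17 purine and tip enzyme genes past the limit, at 240.2 (214 to 269) and 495 (473 to 518) CPM. Its ratio fell short of 2-fold in 5 of 7 other settings. With 1 gene past 2-fold in each, nothing is read about either list.

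The absorptive machinery was lower in part in HIF-1α KO members. Of 25 ion and water absorption genes, 4 were past 2-fold lower and 1 higher, against 1.31% and 1.33% over all genes, and 17 had a ratio below 0. The median of the list was -0.24, against -0.07 over all genes tested, so most genes tested were below 0 too. Car1 and Car2, neighboring genes on chromosome 3 for cytosolic carbonic anhydrases that supply bicarbonate and protons to the exchangers, had 762 (714 to 812) and 418 (383 to 456) CPM in WT and 323 (305 to 341) and 136 (125 to 148) CPM in HIF-1α KO. For Car1 the log2 ratio was -1.24 in members and -1.37 in other absorptive nuclei. For Car2 it was -1.62 (-1.79 to -1.44) in members and -0.74 (-0.89 to -0.59) in other absorptive nuclei. Slc4a4, encoding a sodium bicarbonate cotransporter, had 334 (303 to 368) and 152 (140 to 165) CPM in members but 326 and 417 CPM in other absorptive nuclei, so its log2 ratios were -1.14 (-1.32 to -0.95) and 0.36 (0.21 to 0.51). With thinning the ratio of Slc4a4 in members was -0.75, short of 2-fold, and that of Car1 -0.99. The fourth gene was Sgk1, given below.

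The apical transporters were nearer to equal. Slc26a3 had 1548 and 1651 CPM, and the sodium proton exchanger genes Slc9a2 (495 and 562 CPM) and Slc9a3 (415 and 393 CPM) were not past 2-fold. The sulfate transporter gene Slc26a2 had 1699 and 1037 CPM, a log2 ratio of -0.71 (-0.79 to -0.64). The sodium channel subunit gene Scnn1g was sparse, with 26 and 28 UMIs and a log2 ratio of -1.57 (-2.39 to -0.74), and Scnn1a had 93.3 and 114 CPM. The gene past the limit in the other direction was Trpv6, a calcium channel gene, with 9 and 111 UMIs. Butyrate uptake and oxidation held 0 of 20 genes past 2-fold in either direction, against 2.64% over all genes, with a median of -0.14. Within that list the monocarboxylate transporter gene Slc16a1 had 152 and 73.0 CPM, and the butyrate transporter gene Slc5a8 174 and 256 CPM.

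The brush border list held 0 of 26 genes past 2-fold, against 2.64% over all genes. Of the 26, 23 had a ratio above 0. The median was 0.37 in members, 0.25 in other absorptive nuclei and 0.49 in all other nuclei, against -0.07, 0.05 and 0.08 over all genes tested. Mep1b, encoding a meprin subunit, was nearest the limit at 121 and 238 CPM. Muc13, a membrane mucin gene and the most abundant of the list, went the other way, at 5105 and 4008 CPM. Junction and matrix contact genes held 1 of 32 past 2-fold, against 2.64% over all genes. It was Cldn8, a claudin gene that seals the distal colon to sodium, with 82.8 (67.5 to 100.5) and 31.0 (25.8 to 37.1) CPM. Lamb3, encoding a laminin chain of epithelial basement membranes, had 80.3 and 138 CPM in members, a log2 ratio of 0.78 (0.47 to 1.11), and -0.45 (-0.73 to -0.17) in other absorptive nuclei.

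The lowest ratios in HIF-1α KO members included genes that glucocorticoid and mineralocorticoid hormones are known to induce. Zbtb16 (ENSMUSG00000066687, chromosome 9, 48654297 to 48836222), encoding a zinc finger transcription factor, had 124 UMIs or 101 (83.7 to 120) CPM in WT and 52 UMIs or 13.2 (9.88 to 17.3) CPM in HIF-1α KO. Sgk1 (ENSMUSG00000019970, chromosome 10, 21882184 to 21999903), the kinase gene with the match to GRE letters shown above, whose product keeps epithelial sodium channels at the membrane, had 295 UMIs or 239 (213 to 268) CPM and 216 UMIs or 54.9 (47.9 to 62.8) CPM. Fkbp5, encoding a co-chaperone of steroid receptors, had 344 (312 to 378) and 115 (104 to 126) CPM. The log2 ratios were -2.93, -2.12 and -1.58 in members, -3.25, -2.60 and -0.85 in other absorptive nuclei, and -2.33, -2.42 and -0.80 in all other nuclei, so these differences were not particular to members. A list of 9 such genes was put together after the values were seen and gives no support of its own. It held these 3 past 2-fold lower and 0 higher, with a median of -0.38. Of the 9, 5 had a ratio below 0 and 4 above it, the highest at 0.62. Klf9 (102 and 126 CPM), Per1 (17.8 and 11.4 CPM), Tsc22d3 (47.9 and 33.1 CPM) and the receptor genes Nr3c1 (160.1 and 167 CPM) and Nr3c2 (4507 and 6132 CPM) were not past 2-fold.

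The other genes of the 12 lowest were F3, Pde10a, Slc10a2, Rora, Il5ra, Csmd1, Gm49980, Plxdc2, Car2 and Pdzrn3. Slc10a2, the ileal bile acid transporter gene, had 56 and 23 UMIs, and Plxdc2 156 and 143 UMIs. F3, encoding tissue factor, had 137 and 82 UMIs, but a single nucleus held 51.1% of the WT UMIs. Its log2 ratio with 10 CPM added was -1.97 with all members and -0.86 with those that met the rule at 1000 UMIs. For Csmd1 the largest share in 1 WT nucleus was 53.7%. Pde10a, Rora, Csmd1 and Pdzrn3 had a higher level outside members than in them in both libraries, for example 216 CPM of Rora in all other WT nuclei against 50.3 CPM in WT members. Mesenchymal and neuronal marker sums were also lower in HIF-1α KO members, as given above, and in all other nuclei, where they were 1102 and 595 CPM and 1266 and 735 CPM. Their part in these low ratios was not tested.

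The counts of the remaining lists stand against 1.31% lower and 1.33% higher over all genes. Maturation regulators held 1 of 32 genes past 2-fold lower, the transcription factor gene Sox9 with 67 UMIs in each library (54.4 and 17.0 CPM), and 0 higher. The colonocyte regulator genes Hnf4a (399 and 483 CPM), Cdx2 (35.7 and 18.6 CPM) and Klf4 (569 and 598 CPM) were not past it. EGF ligands and receptors held Nrg1 as the only 1 of 7 past 2-fold lower, at 157 and 71.7 CPM, and 0 higher. Nrg1 is a neuregulin gene and had 665 and 361 CPM in all other nuclei. Immediate-early and stress genes held 2 of 20 lower, Txnip (841 and 384 CPM) and Jund (776 and 368 CPM), and 1 higher, Atf3 (90.9 and 197 CPM). Fos (209 and 188 CPM) and Junb (127 and 133 CPM) differed by less than 2-fold.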

How the data were processed

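The authors aligned the reads with Cell Ranger 7.0.1 (submitters' processing notes) to mm10 (GRCm38) and deposited UMI counts per gene and nucleus for the barcodes kept by default cell calling. Whether intronic reads were counted is not given in the sources used here. Nuclei with 400 to 5000 detected genes and at most 10% mitochondrial UMIs were kept, as in the study. No doublet caller was run. Members were found by the rule in the report, and their UMIs summed per library and scaled to 1000000 (CPM).

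With 1 library per genotype no test was made. Intervals are exact 95% Poisson, binomial or conditional intervals. A gene was past 2-fold when its log2 ratio, with 10 CPM added to both levels, was at least 1 in size. The code was tested on simulated counts. Members, the 12 gene lists, the motifs and the other settings were chosen with earlier results of these data known. Named were the rule genes, list members, and the 12 highest and 12 lowest ratios per comparison, for the genotypes only among genes with non-overlapping intervals. Other absorptive nuclei had at least 3 of 8 absorptive genes and 0.3% of UMIs in them, and goblet, mesenchymal and immune nuclei at least 3 genes of their lists and 1%, 0.3% and 0.3%.

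Identifiers were matched to GENCODE M21 (32235 of 32285). Python 3.11.15, numpy 2.4.6, pandas 2.3.3, scipy 1.17.1 and matplotlib 3.10.9 were used.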

Additional observations from a re-analysis of the deposited data

Results flagged for a closer look

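Several named genes differed between the genotypes in one direction in surface nuclei and in the other direction in other absorptive nuclei, with counting intervals on opposite sides of 0. The difference was not tested, since each genotype had 1 library. The log2 ratio of HIF-1α KO over WT was lower in surface nuclei and higher in other absorptive nuclei for 8 of them. These were Slc4a4 (-1.14 and 0.36), the cytokine receptor gene Il10rb (-0.85 and 0.48), Bmp2 (-0.67 and 0.53), Klf5 (-0.37 and 0.16), Muc13 (-0.35 and 0.18), the sodium pump subunit gene Atp1b1 (-0.34 and 0.17), Cyp3a13 (-0.28 and 0.43) and Dmbt1 (-0.079 and 0.39). The opposite was seen for Lamb3 (0.78 and -0.45) and the plectin gene Plec (0.20 and -0.25). Slc4a4 was the only 1 of the 10 past 2-fold in surface nuclei. The ratio of Dmbt1 in surface nuclei lay near the median over all genes tested (-0.07). With 10 CPM added, it was -0.01 when centered on that median and 0.03 as the mean of single nuclei.

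Nuclei that met the rule but were left out by the filter on quality numbered 1 in WT and 19 in HIF-1α KO. Of the latter, 14 had over 5000 detected genes and 5 had over 10% mitochondrial UMIs. Their median depth was 22313 UMIs.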

How the results depend on the processing

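No paired analysis was possible because each genotype had 1 library, and no replicate could be left out. The log2 ratio of the shares of surface nuclei lay between 0.96 and 1.32 in 9 other settings. It was 0.32 with absorptive nuclei as the denominator. Genes past 2-fold between the genotypes numbered 106 higher and 104 lower in HIF-1α KO. Thinning to 1000 UMIs, which left 3285 genes with enough UMIs, gave 68 and 49, and a minimum of 100 UMIs gave 68 lower. Centring on the median gave 142 higher and 79 lower, and leaving out mitochondrial and the 10 most abundant genes 99 higher and 139 lower. Between surface and other absorptive nuclei, 186 genes were higher and 74 lower. Counted anew, thinning gave 122 higher, centring gave 38 lower with 275 higher, and crypt enterocyte nuclei as comparator gave 583 higher and 935 lower. The cause was not tested, except that thinning and a higher minimum leave fewer genes. Of 42 named genes past 2-fold between the genotypes, 31 were past it in all of 7 settings where they could be computed and 0 changed sign. Ddx60, Jund and Xdh fell under 2-fold in 4, 4 and 5 settings, Nrg1 and Sox9 in 2 settings each, and Car1, Cldn8, F3, Ifit2, Nfkbiz and Slc4a4 in 1 setting each. Members that met the rule at 1000 UMIs gave 113 higher and 72 lower. For the shares 2 settings and for the genes 1 were added after the data were seen. Genes under about 50 UMIs in members were not compared.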
